A study of Mus musculus with 28 samples.

Results

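The guanylate-binding proteins (Gbps) described here are the 8 mouse genes Gbp2, Gbp3, Gbp4, Gbp5, Gbp6, Gbp7, Gbp8 and Gbp9. The rule lists them by name and uses no measured value, and each was found by its Ensembl ID in both count tables, as 8 of 15423 genes in the first and 8 of 56941 in the second. The list was chosen with earlier results of these data known. All 8 passed the filter on low counts in both experiments. The libraries are messenger RNA from bone marrow-derived macrophages, primary cells grown from mouse marrow with medium conditioned by L929 fibroblasts for 6 days and then kept without it for 24 h. The first experiment holds 4 libraries each from cells labelled as lacking Irgm1 and IFNAR, the receptor for type I interferon (Irgm_IFNAR-KO), cells without Irgm1 alone (Irgm1-KO) and wild-type cells (WT). The second holds 4 libraries each of Irgm1KO cells with 50 µM fenofibrate (Irgm1KO_fenofibrate), Irgm1KO cells without it (Irgm1KO_control), WT cells with fenofibrate (WT_fenofibrate) and WT cells without it (WT_control). It thus asks how this lipid-lowering drug, an activator of the nuclear receptor PPAR alpha, changes both genotypes. The donors were male and female mice of 2 to 4 months, and the mutants were on a C57BL/6 background. No group lacked IFNAR alone, so the effect of losing the receptor could be read only in cells that also lacked Irgm1. The labels give neither the treatment of the control cells nor the duration of the exposure, so an effect of the drug and one of its vehicle cannot be told apart. They also do not say whether replicates came from separate animals. Xist, which is expressed from the inactive X chromosome of females, ran from 0 to 137 CPM (counts per M, mega, of the scaled library) within WT_fenofibrate and from 0.00843 to 110 within WT_control, so the libraries of each of these groups came from more than 1 animal. Xist ran from 1.31 to 143 CPM within Irgm1KO_control and from 1.07 to 116 within Irgm1KO_fenofibrate, so the same holds there. In the first experiment it ran from 50.8 to 231 CPM, and there the spread behind each p-value may be partly technical. In bulk samples fewer cells of a type and less RNA per cell cannot be told apart.

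Gbps are large GTPases of the dynamin superfamily that interferons induce in macrophages and many other cells. Interferon gamma is a strong inducer, and type I interferon induces many of the same genes. Gbp proteins gather on membranes around intracellular bacteria and parasites, help to break them, and expose microbial products to inflammasomes. The family is regulated together with the immunity-related GTPases (IRGs), to which Irgm1 belongs. In the annotation used here Gbp2 (ENSMUSG00000028270), Gbp3 (ENSMUSG00000028268), Gbp5 (ENSMUSG00000105504) and Gbp7 (ENSMUSG00000040253) lie on chromosome 3. Gbp4 (ENSMUSG00000079363), Gbp6 (ENSMUSG00000104713), Gbp8 (ENSMUSG00000034438) and Gbp9 (ENSMUSG00000029298) lie on chromosome 5.

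The promoters of the chromosome 3 members are shown because interferon acts on Gbp genes through short DNA elements near their starts. RefSeq promoter windows (build GRCm38.p6, 250 bases before to 50 bases after the annotated start) were found for these 4 members, with 2 starts for Gbp3. Capitals mark the letters TTCNNNGAA, the core of the gamma-activated site, and GAAA, 2 bases of any kind and GAAA again, the core of the interferon-stimulated response element (ISRE below), each searched on both strands. Each line is the 250 bases before the start, on the plus strand, which is the coding strand of all 4 genes. Gbp2 lies at chr3:142620413-142620662, Gbp3 at chr3:142559794-142560043 (its first start), Gbp5 at chr3:142496684-142496933 and Gbp7 at chr3:142530086-142530335.
Gbp2: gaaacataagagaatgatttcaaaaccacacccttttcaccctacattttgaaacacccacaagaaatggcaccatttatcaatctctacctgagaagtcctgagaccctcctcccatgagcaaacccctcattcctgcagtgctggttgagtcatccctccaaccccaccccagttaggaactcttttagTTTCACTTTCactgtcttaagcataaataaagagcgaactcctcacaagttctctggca
Gbp3: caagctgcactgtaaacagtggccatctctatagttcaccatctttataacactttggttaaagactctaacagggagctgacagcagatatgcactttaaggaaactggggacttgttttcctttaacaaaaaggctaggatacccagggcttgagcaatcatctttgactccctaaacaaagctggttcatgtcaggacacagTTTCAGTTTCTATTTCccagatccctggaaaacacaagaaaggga
Gbp5: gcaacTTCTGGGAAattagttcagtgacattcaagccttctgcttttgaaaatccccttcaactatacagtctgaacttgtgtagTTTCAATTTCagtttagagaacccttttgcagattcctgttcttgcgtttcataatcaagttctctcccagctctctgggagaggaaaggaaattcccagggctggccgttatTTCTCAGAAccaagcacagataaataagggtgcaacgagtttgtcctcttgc
Gbp7: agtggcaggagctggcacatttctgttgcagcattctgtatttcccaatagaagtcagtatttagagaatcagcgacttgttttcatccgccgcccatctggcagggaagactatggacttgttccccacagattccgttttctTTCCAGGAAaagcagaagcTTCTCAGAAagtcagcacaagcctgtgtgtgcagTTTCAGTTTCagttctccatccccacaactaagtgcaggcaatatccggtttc

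Both Gbp5 and Gbp7 held 2 copies of TTCNNNGAA and 1 of the ISRE letters. Counting the base before the start as -1, the copies of TTCNNNGAA in Gbp5 began at -245 and -52 and the ISRE letters at -165. In Gbp7 the copies of TTCNNNGAA began at -106 and -87 and the ISRE letters at -53. Gbp2 held 1 ISRE match, at -59, and no TTCNNNGAA. Gbp3 held 2 ISRE matches that overlap each other, at -45 and -39 from its first start, with no TTCNNNGAA, and its second start had neither motif. Every ISRE match was read on the minus strand. Among 32851 promoter windows of the same length, 8.3% held TTCNNNGAA and 3.44% held the ISRE letters. These are matches of letters, not measured binding sites.

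**Figure D1:**
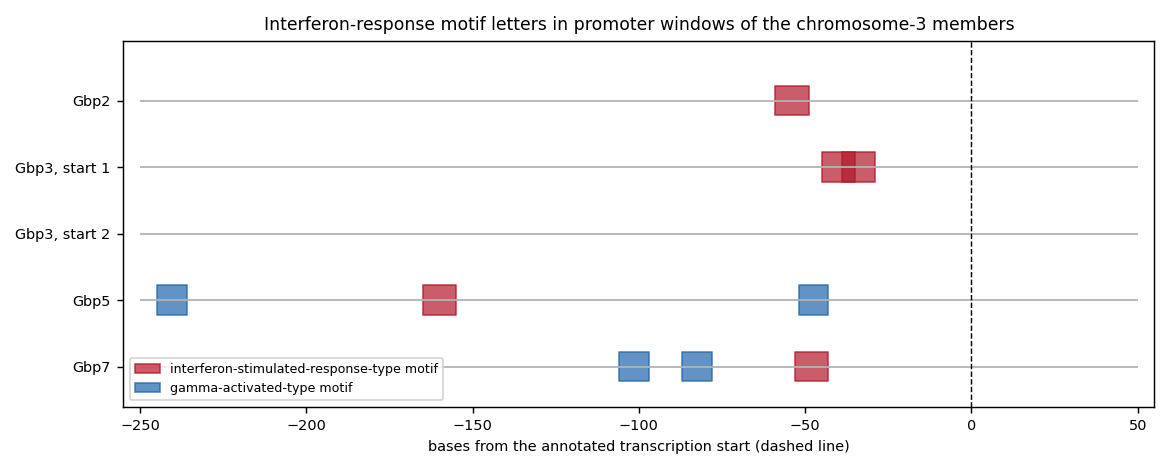
Positions of motif letters in the promoter windows of the chromosome 3 members. The horizontal axis is the distance in bases from the annotated start, each grey line is 1 promoter window, and coloured boxes are matches on either strand. Gbp5 and Gbp7 carry both kinds of motif, Gbp2 and the first start of Gbp3 carry the interferon-stimulated-response type only, and the second start of Gbp3 carries neither.

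Depth was 48.7 to 70.5 M counts per library in the first experiment and 82.4 to 120.8 M in the second. Irgm1 counts checked the labels: mean levels were 716 ± 73.5 CPM in Irgm_IFNAR-KO, 760 ± 92 in Irgm1-KO and 1293 ± 74.4 in WT cells (SD, n = 4 each), and the gene fell in Irgm1KO of both experiments without reaching 0. Ifnar1, which encodes a chain of the IFNAR receptor, stood at 114, 109, 53.1 and 108 CPM in Irgm_IFNAR-KO, 127, 125, 112 and 120 in Irgm1-KO and 139, 128, 137 and 141 in WT. Its libraries in Irgm_IFNAR-KO lay below those of WT, but it was not called against WT (log2 fold change -0.50, adjusted p = 0.119 by edgeR) or against Irgm1-KO (-0.33, adjusted p = 0.178). Which part of either gene was deleted is not given in the labels, so RNA counts outside it would not check the genotype. All 10 macrophage markers were detected in every group. Their summed level ran from 9480 to 14700 CPM in Irgm1-KO, against 21500 to 41700 in WT. In Irgm1KO_control it ran from 10600 to 12800, against 22200 to 30800 in WT_control. The genes of the list did not move together. In Irgm1-KO against WT, Adgre1, Cd14, Lyz2, Mrc1 and Cx3cr1 were lower. Mertk was higher (log2 fold change 0.82), and Csf1r, Cd68, Itgam and Fcgr1 were not called. The part of this list in the Gbp results below was not tested. B cell markers, carried by Ighm, summed to 24.7 to 45.3 CPM in Irgm1-KO, against 169 to 213 in WT. Of the 6 genes of that list 2 were listed in the first experiment, Ighm and Cd79b, and both were lower. NK cell markers, of which Klrk1 was the 1 gene listed in the first experiment, summed to 74.3 to 109 CPM in Irgm1-KO, against 43.5 to 70.5 in WT. They summed to 55.4 to 83.6 CPM in Irgm1KO_control, against 17.8 to 32.0 in WT_control. Gzma and Prf1 were at 0 throughout the second experiment, and Ncr1 and Nkg7 were also at 0 in Irgm1KO_control. T cell markers summed to at most 4.27 CPM, and Cd3g was at 0 in every library of the second experiment. Markers of dendritic cells summed to at most 71.7 CPM, of neutrophils to 40.7 and of fibroblasts to 7.86. In Irgm1-KO these sums were 21.6 to 26.0, 5.67 to 9.76 and 0.955 to 1.53 CPM, in that order. In WT they were 46.0 to 54.3, 16.2 to 40.7 and 2.95 to 7.77. Of the dendritic genes, Clec9a was lower and Xcr1 higher in Irgm1-KO. Dendritic markers summed to 54.8 to 59.0 CPM in Irgm1KO_control, 27.3 to 45.7 in WT_control and 8.52 to 24.7 in WT_fenofibrate. The part of these lists in the Gbp results was not tested. Within groups, 53.8% of the variance in the first experiment lay along 1 axis. Its farthest libraries were Irgm_IFNAR-KO replicate 4, Irgm1-KO replicate 3 and WT replicate 2, each with the lowest Xist of its group (97.2, 97.9 and 50.8 CPM). Results that rest on them are given with and without them.

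Gbp RNA was abundant in all 7 groups, wild-type controls included. The 8 members together took 0.873 ± 0.047% of counts in Irgm_IFNAR-KO, 0.799 ± 0.0203% in Irgm1-KO and 0.724 ± 0.037% in WT cells (SD, n = 4). In the second experiment the shares were 0.962 ± 0.0508% in Irgm1KO_fenofibrate, 1.03 ± 0.0266% in Irgm1KO_control, 1.02 ± 0.0994% in WT_fenofibrate and 1.05 ± 0.0599% in WT_control. Gbp2, whose protein coats the vacuole of Toxoplasma and the surface of cytosolic bacteria, supplied 56.5% to 73.2% of the members' counts in each library and ranked between 8 and 14 among all genes by CPM. Gbp6 had the lowest level and ranked between 1000 and 1482. No transcript of Ifng, which encodes interferon gamma, was counted in any of the 16 libraries of the second experiment, which allows up to 3 counts per library, although genes typical of interferon gamma were high in WT_control cells, such as Ciita (531 ± 40.3 CPM) and Cxcl9 (1152 ± 260 CPM). These examples were chosen after their values were seen. The labels name interferon gamma among the additives of the culture protocol but assign it to no library, and its part in the Gbp levels was not tested.

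Per kilobase of exon length, Gbp2 stood far above the rest, and the order Gbp2, Gbp3, Gbp5 held in all 7 groups. Gbp2 had 2223 ± 188 CPM per kb in Irgm_IFNAR-KO, 1905 ± 59.7 in Irgm1-KO and 1755 ± 142 in WT cells. Gbp3 had 174 ± 6.18, 214 ± 11.6 and 175 ± 4.57 CPM per kb in these groups, and Gbp6 20.7 ± 0.851, 24.3 ± 1.14 and 21.8 ± 0.833. In the middle of the order neighbours were not separated: libraries of Gbp5 and Gbp4 overlapped in Irgm1-KO and WT, those of Gbp4 and Gbp7 in Irgm_IFNAR-KO, WT and WT_control, and those of Gbp7 and Gbp9 in Irgm1-KO and WT. Gbp7 stood above Gbp4 in WT_fenofibrate only, at 89.4 ± 5.83 against 64.6 ± 8.04 CPM per kb, and there the order turned round when length was taken from the longest transcript. With that length Gbp5 also stood above Gbp3 in WT_control. Levels of Gbp6 are uncertain: 59.7% of the 50-base stretches in its longest transcript occur in another gene, and 51.5% of all its stretches occur in the annotated copy Gm43302, which averaged at most 0.00477 CPM in the second experiment. For the other members this share was 2.1% (Gbp2) to 18.2% (Gbp8).

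**Figure D2:**
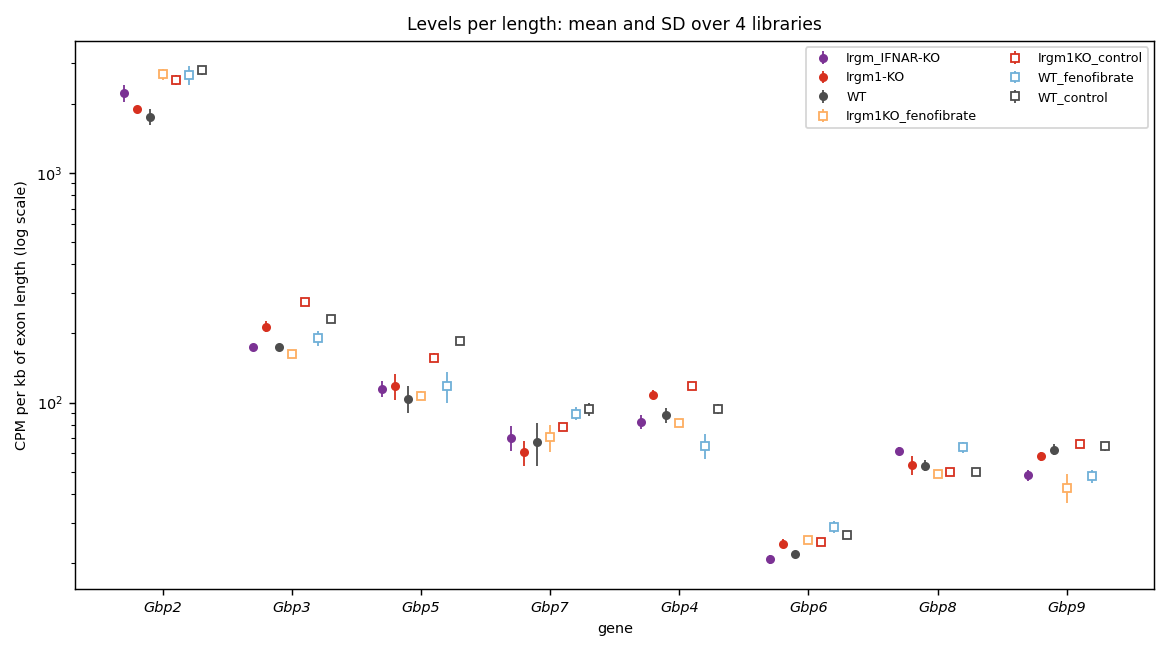
Level of each member per kilobase of exon length (vertical axis, CPM per kb, log scale) in each group; circles are the first experiment, open squares the second, and bars are the SD over 4 libraries. Gbp2 lies at 1755 CPM per kb or more in every group and Gbp6 at 28.8 or less.

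The first question was whether loss of Irgm1 raised these genes along with the type I interferon response. In Irgm1-KO cells 2 of 8 members rose relative to WT, Gbp3 and Gbp4, none fell, and both rises were small. Over all 13998 genes tested, 40.4% were called in either direction (19.8% higher and 20.7% lower) by edgeR's quasi-likelihood test at a Benjamini-Hochberg adjusted p under 0.05, so the share of members called was below the background. The median log2 fold change of the members was 0.14, against -0.02 for all genes. By comparison, 28 of the 29 tested genes typical of type I interferon rose and 1 fell (Ifi27, named after its value was seen), with a median of 1.75, led by Oasl1, an antiviral OAS-like protein (log2 fold change 4.32). Mx1 and Mx2, antiviral dynamin-like GTPases that interferon induces, rose by 3.61 and 3.48 on the log2 scale.

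Gbp3, one of the chromosome 3 genes whose joint deletion weakens caspase-11 responses in mouse macrophages, stood at 731, 691, 727 and 650 CPM in Irgm1-KO libraries 1 to 4, against 552, 580, 586 and 569 CPM in WT. The groups did not overlap, and the log2 fold change was 0.29 ± 0.0632 (SE; edgeR, adjusted p = 0.00282). Gbp4 stood at 856, 824, 799 and 767 CPM in Irgm1-KO, against 686, 586, 670 and 691 CPM in WT. It too did not overlap, with a log2 fold change of 0.30 ± 0.0774 (edgeR, adjusted p = 0.00797).

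Gbp6 stood at 153, 145, 144 and 136 CPM in Irgm1-KO, against 126, 125, 131 and 136 CPM in WT. Every Irgm1-KO library exceeded every WT library, the narrowest pair being 136.3 and 135.9 CPM, but the test did not call it (log2 fold change 0.16, adjusted p = 0.0709 by edgeR), whereas DESeq2 did (0.18, adjusted p = 0.0153). Of the 8 members, 3 did not overlap between these groups, where 35.0% of all genes did not. Gbp2, Gbp5, Gbp7, Gbp8 and Gbp9 overlapped, with log2 fold changes of 0.12, 0.18, -0.15, 0.01 and -0.10. Gbp7, which brings parts of the oxidative and autophagic machinery to bacteria, varied most among WT libraries (459, 265, 388 and 398 CPM), lowest in WT replicate 2. Gbp5, a promoter of NLRP3 inflammasome assembly, was lowest in the same WT library at 555 CPM. Without the farthest library of each group 4 members rose: Gbp5 (0.19, adjusted p = 0.0459) and Gbp6 (0.17, adjusted p = 0.0372) joined Gbp3 and Gbp4. With Xist as a covariate Gbp2 and Gbp6 were also called higher, and Gbp7 was called lower.

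**Figure D3:**
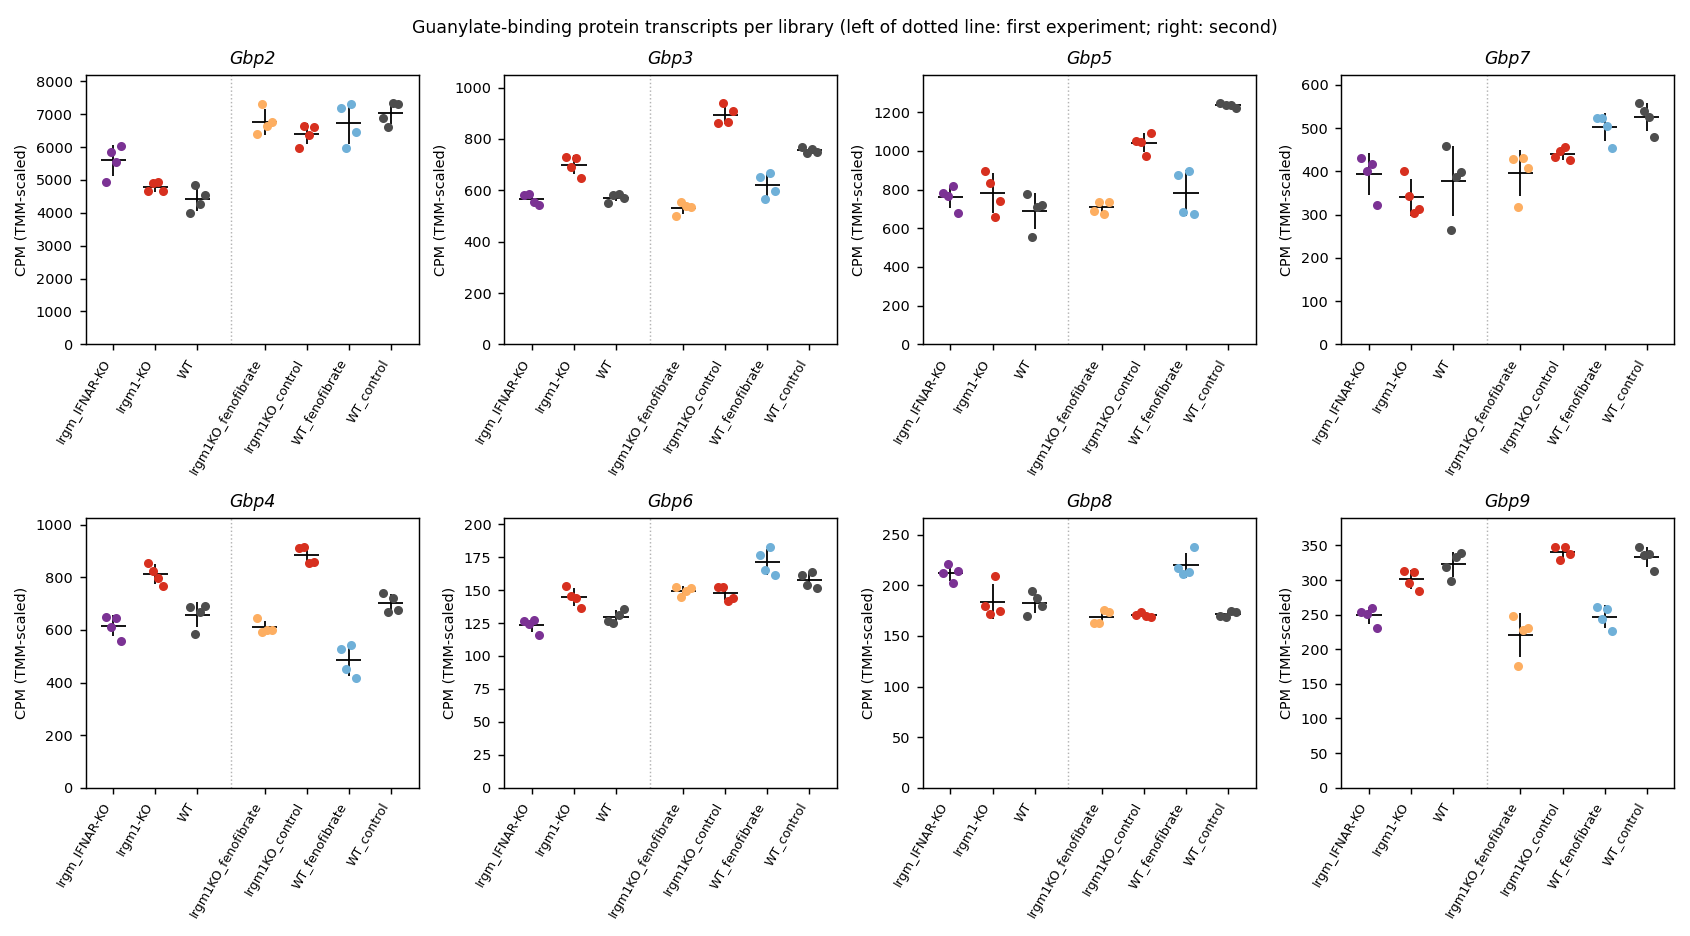
CPM of each member in every library (points), with the group mean (horizontal bar) and SD (vertical bar, n = 4); the vertical axis starts at 0 and the dotted line separates the experiments. Gbp3 and Gbp4 in Irgm1-KO lie above every WT library, and the fenofibrate groups of Gbp3, Gbp4, Gbp5 and Gbp9 lie below their controls.

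The next question was what the further loss of the interferon receptor did. Relative to Irgm1-KO, Irgm_IFNAR-KO cells had less Gbp3, Gbp4, Gbp6 and Gbp9 RNA and more Gbp2 RNA, so members moved in both directions. Of the 8, 4 fell and 1 rose, and 42.8% of all genes were called (21.5% higher, 21.3% lower). These 5 did not overlap between the groups, and 42.3% of all genes did not. The members' largest change was a log2 fold change of -0.40, whereas 27 of 29 type I interferon-stimulated genes fell, with a median of -3.88. Summed macrophage markers ran from 29000 to 40200 CPM in Irgm_IFNAR-KO, against 9480 to 14700 in Irgm1-KO. In that list Adgre1, Itgam, Cd14, Lyz2, Mrc1 and Cx3cr1 were higher. Cd68 (-0.295), Mertk (-0.628) and Fcgr1 (-0.876) were lower, and Csf1r was not called. B cell markers, of which 2 of 6 genes were listed, summed to 187 to 199 CPM, against 24.7 to 45.3. Of these 2, Ighm was higher (log2 fold change 2.62) and Cd79b was not called (-0.83, adjusted p = 0.107 by edgeR). Klrk1, the 1 NK cell marker listed, ran from 24.5 to 32.1 CPM, against 74.3 to 109. The part of these markers in the changes of the members was not tested.

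Gbp3 stood at 583, 585, 555 and 545 CPM in Irgm_IFNAR-KO, all below the Irgm1-KO range of 650 to 731 CPM (log2 fold change -0.30, adjusted p = 0.002 by edgeR). Gbp4 stood at 649, 612, 647 and 560 CPM in Irgm_IFNAR-KO, all below the Irgm1-KO range of 767 to 856 CPM (-0.40, adjusted p = 0.0013). Neither gene differed from WT by the test in Irgm_IFNAR-KO cells, where the log2 fold changes were -0.01 (95% interval -0.15 to 0.13) and -0.09 (-0.26 to 0.075).

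Gbp6, whose protein gathers at Toxoplasma vacuoles, stood at 126, 124, 127 and 116 CPM in Irgm_IFNAR-KO and at 136 to 153 CPM in Irgm1-KO. The groups did not overlap (-0.23, adjusted p = 0.0127 by edgeR). Gbp9, also found at those vacuoles, stood at 255, 251, 260 and 231 CPM in Irgm_IFNAR-KO, 313, 296, 312 and 285 CPM in Irgm1-KO and 319, 298, 334 and 339 CPM in WT. Irgm_IFNAR-KO libraries lay below both other groups: the log2 fold change was -0.28 against Irgm1-KO (adjusted p = 0.00701) and -0.37 against WT (adjusted p = 0.0035).

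Gbp2 went the other way, at 4951, 5839, 5547 and 6033 CPM in Irgm_IFNAR-KO, 4667, 4917, 4927 and 4658 CPM in Irgm1-KO and 4010, 4838, 4268 and 4550 CPM in WT. The lowest Irgm_IFNAR-KO library was above every other library of the experiment. The rise against WT was 0.34 ± 0.0782 on the log2 scale (SE; edgeR, adjusted p = 0.0124). The rise against Irgm1-KO was 0.22 ± 0.0782 (adjusted p = 0.0367), and leaving out any of 6 of the 8 libraries compared (Irgm_IFNAR-KO replicates 2, 3 and 4 and Irgm1-KO replicates 1, 2 and 4) ended that call, with adjusted p from 0.0621 to 0.0979. It also ended without the farthest library of each group (0.16, adjusted p = 0.084).

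Gbp8 stood at 212, 221, 202 and 215 CPM in Irgm_IFNAR-KO, 180, 172, 209 and 175 CPM in Irgm1-KO and 170, 195, 188 and 179 CPM in WT. It was not called against Irgm1-KO (0.21, adjusted p = 0.0509 by edgeR) or against WT (0.22, adjusted p = 0.108), but without Irgm1-KO replicate 3, its highest library there, it was (0.27, adjusted p = 0.0082). Without the farthest library of each group it was called against Irgm1-KO (0.24, adjusted p = 0.00671) and against WT (0.23, adjusted p = 0.0235). Gbp5 and Gbp7 overlapped between all 3 groups and were not called. Between Irgm_IFNAR-KO and WT, 1 member rose and 1 fell, with 12.2% of all genes called (3.94% higher, 8.22% lower), while 27 of 29 type I interferon-stimulated genes were below WT. Gbp2, Gbp8 and Gbp9 did not overlap between these groups, where 17.9% of all genes did not.

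The second experiment repeated the comparison of genotypes with other libraries, sequenced for 50 rather than 100 cycles. Irgm1KO_control cells again had more Gbp3 and Gbp4 RNA than WT_control cells, by 0.24 ± 0.0549 and 0.34 ± 0.0725 on the log2 scale (SE; edgeR, adjusted p = 0.00133 and 0.000881). Gbp5 and Gbp7 fell, so 2 members rose, 2 fell and 4 were not called. Over 15429 genes tested, 53.4% were called (27.3% higher, 26.1% lower), and the members' share was near that background. The 4 called members did not overlap, and 54.1% of all genes did not. Type I interferon-stimulated genes were higher for 27 of 29 and lower for 1, with a median of 1.70. The experiments were fitted apart, and the difference between them was not tested.

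Gbp3 stood at 862, 938, 865 and 909 CPM in Irgm1KO_control, against 767, 746, 760 and 749 CPM in WT_control. Gbp4 stood at 912, 916, 856 and 858 CPM, against 740, 668, 723 and 676 CPM. Neither gene overlapped between the genotypes.

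Gbp5 stood at 1052, 1046, 975 and 1093 CPM in Irgm1KO_control, against 1245, 1238, 1237 and 1224 CPM in WT_control, whose libraries lay very close together. The log2 fold change was -0.25 (adjusted p = 0.0176 by edgeR), and the call ended without Irgm1KO_control replicate 3 (adjusted p = 0.0532) and without the farthest library of each group (adjusted p = 0.0528). Gbp7 stood at 433, 447, 456 and 426 CPM in Irgm1KO_control, against 557, 539, 525 and 481 CPM in WT_control. Its groups did not overlap either (-0.26, adjusted p = 0.0149), and its call ended without WT_control replicate 1 (adjusted p = 0.0554). Gbp2, Gbp6, Gbp8 and Gbp9 overlapped, with log2 fold changes of -0.14, -0.10, -0.01 and 0.03.

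**Figure D4:**
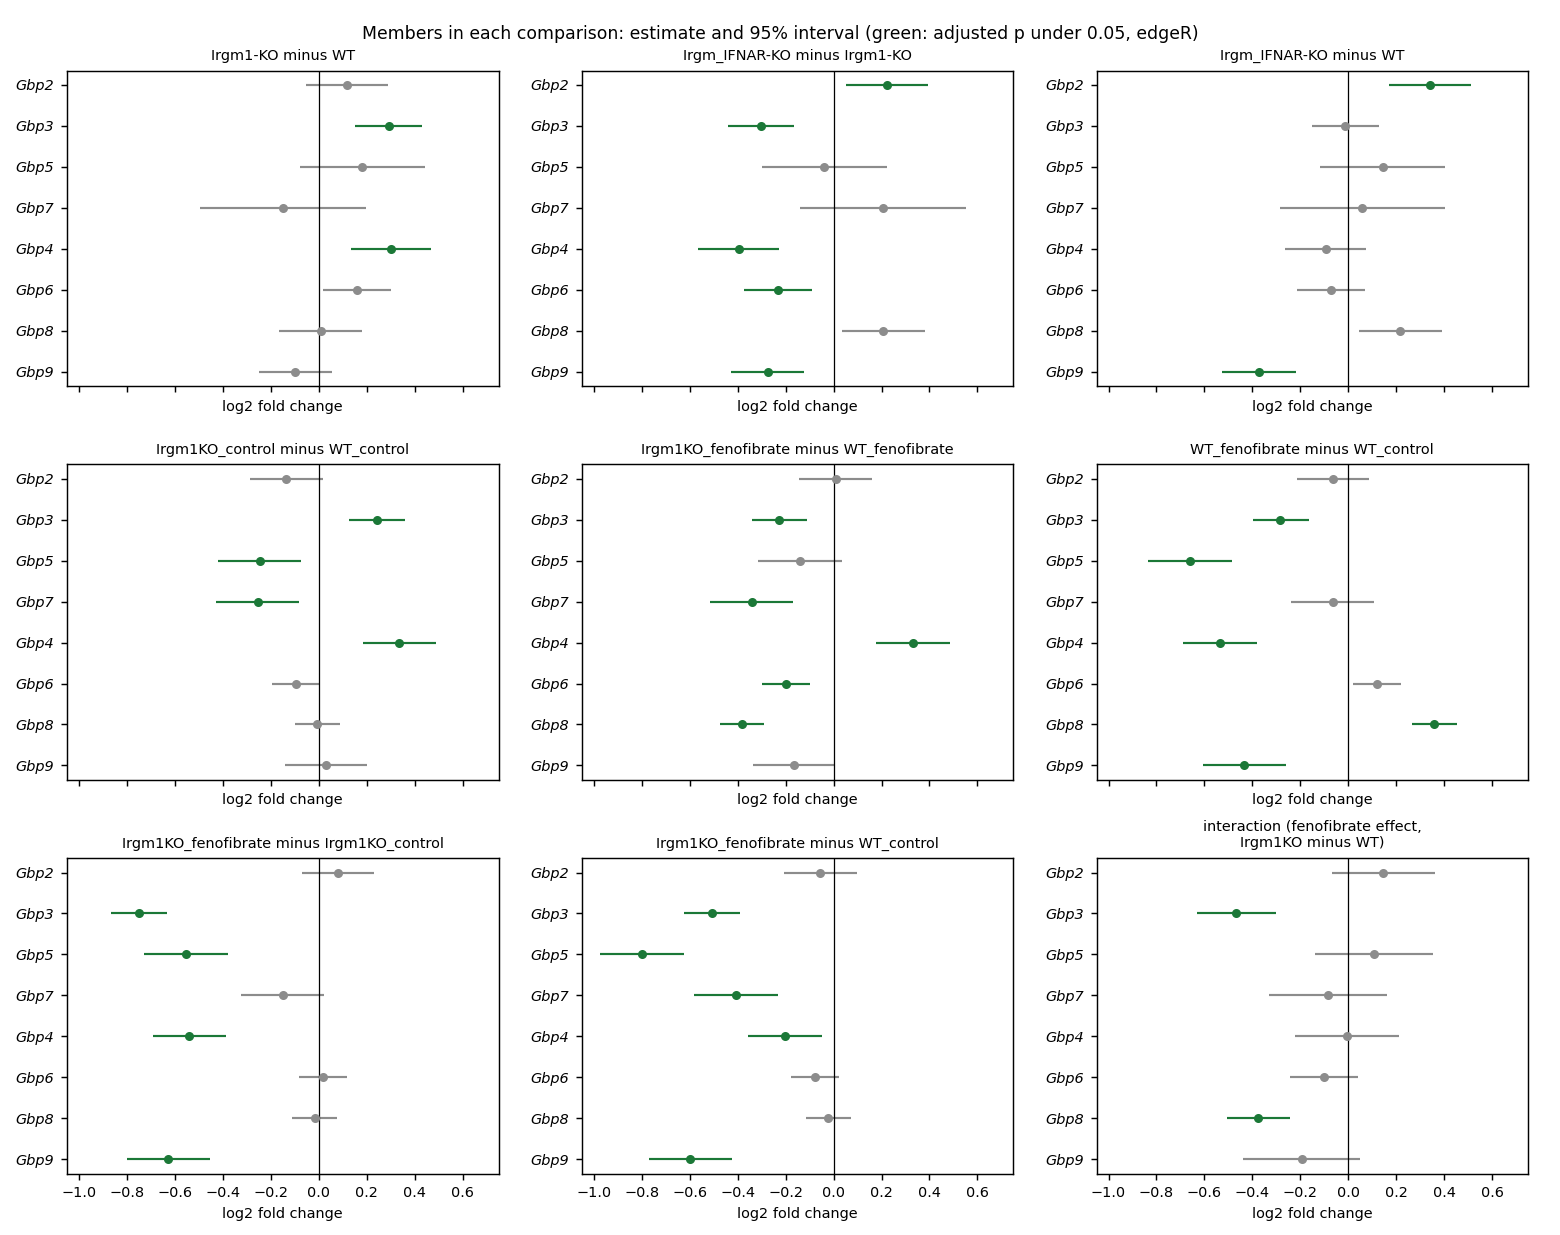
Log2 fold change (horizontal axis) of each member (rows) in the 8 group comparisons and the interaction; points are estimates, bars 95% intervals, and green marks an adjusted p under 0.05 in edgeR. The first group named in each panel title is the numerator. All member estimates lie between -0.80 and 0.36 in the group comparisons.

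Fenofibrate lowered 4 of the 8 members in both genotypes. In Irgm1KO cells Gbp3, Gbp4, Gbp5 and Gbp9 fell and no member rose, and in WT cells the same 4 genes fell and Gbp8 rose. The estimates come from a fit that did not pair same-numbered control and fenofibrate libraries. These calls all stayed when such libraries were paired. Across all genes 45.7% were called in Irgm1KO (23.5% higher, 22.2% lower) and 35.0% in WT (18.1% higher, 16.9% lower). Each called gene did not overlap with its own control group, and over all genes 41.5% did not overlap in Irgm1KO and 37.1% in WT. The summed macrophage markers ran from 15000 to 18400 CPM in Irgm1KO_fenofibrate, against 10600 to 12800 in Irgm1KO_control. In WT_fenofibrate they ran from 14000 to 22500, against 22200 to 30800 in WT_control. A sum does not show how the single genes of a list moved, and those are given here for WT only. In WT, Adgre1, Csf1r, Itgam, Fcgr1, Cd14 and Cx3cr1 of that list fell. Cd68 rose (log2 fold change 0.42), and Mertk, Lyz2 and Mrc1 were not called. NK cell markers summed to 12.7 to 24.5 CPM in Irgm1KO_fenofibrate, against 55.4 to 83.6 in Irgm1KO_control, and to 2.58 to 7.54 CPM in WT_fenofibrate, against 17.8 to 32.0 in WT_control. These sums rest on few genes: Ncr1, Nkg7, Gzma and Prf1 were at 0 in both Irgm1KO groups, and Gzma and Prf1 in both WT groups. Klrk1 fell in WT by a log2 fold change of -2.12 (edgeR, adjusted p = 0.00014). The part of either list in the falls was not tested.

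Gbp3 stood at 501, 554, 537 and 533 CPM in Irgm1KO_fenofibrate, against 862 to 938 CPM in Irgm1KO_control, a log2 fold change of -0.75 ± 0.0552 (SE; edgeR, adjusted p = 3.22e-08). In WT_fenofibrate it stood at 652, 566, 668 and 599 CPM, against 746 to 767 CPM in WT_control (-0.28 ± 0.0549, adjusted p = 0.000852). The fall was larger in Irgm1KO cells: the interaction term was -0.47 ± 0.0776 (adjusted p = 0.000312), in a test that called 29.6% of all genes (14.9% higher, 14.7% lower) and 2 of 8 members, both lower. Gbp3 was thus higher in Irgm1KO than in WT without the drug and lower with it (-0.23, adjusted p = 0.00515).

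Gbp4 stood at 645, 594, 599 and 600 CPM in Irgm1KO_fenofibrate, against 856 to 916 CPM in Irgm1KO_control (-0.54, adjusted p = 1.5e-05 by edgeR). In WT_fenofibrate it stood at 527, 450, 543 and 418 CPM, against 668 to 740 CPM in WT_control (log2 fold change -0.53 ± 0.0727, adjusted p = 4.21e-05). The falls did not differ by the test (interaction -0.004, 95% interval -0.22 to 0.21), and Gbp4 stayed higher in Irgm1KO than in WT under the drug (0.33, adjusted p = 0.0025).

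Gbp5 stood at 691, 735, 676 and 738 CPM in Irgm1KO_fenofibrate, against 975 to 1093 CPM in Irgm1KO_control (-0.55, adjusted p = 4.01e-05 by edgeR). In WT_fenofibrate it stood at 876, 682, 896 and 672 CPM, against 1224 to 1245 CPM in WT_control (-0.66, adjusted p = 2.05e-05). WT_fenofibrate replicates 2 and 4 were the low pair for Gbp3, Gbp4, Gbp5 and Gbp9 alike, and they were also the WT_fenofibrate libraries in which Xist was at 0. With Xist as a covariate the 4 falls in WT were still called.

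Gbp9 stood at 248, 176, 227 and 231 CPM in Irgm1KO_fenofibrate, against 330 to 348 CPM in Irgm1KO_control (-0.63, adjusted p = 1.04e-05 by edgeR). In WT_fenofibrate it stood at 261, 244, 258 and 226 CPM, against 313 to 348 CPM in WT_control (-0.43, adjusted p = 0.000652). Its interaction was -0.19 (95% interval -0.44 to 0.0485) and was not called.

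Gbp8 followed another pattern, with a change in WT cells. It stood at 163, 163, 176 and 174 CPM in Irgm1KO_fenofibrate, against 171, 174, 170 and 169 CPM in Irgm1KO_control, and these groups overlapped (-0.02, 95% interval -0.11 to 0.0773). In WT_fenofibrate it stood at 218, 211, 214 and 238 CPM, against 170, 169, 174 and 173 CPM in WT_control, with no overlap (0.36 ± 0.0442, SE; edgeR, adjusted p = 1.85e-05). The interaction was -0.38 ± 0.0625 (adjusted p = 0.000318).

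Gbp2, Gbp6 and Gbp7 were not called for fenofibrate in either genotype by this test. Gbp2 differed by 0.08 in Irgm1KO and -0.07 in WT on the log2 scale, with 95% intervals of -0.07 to 0.23 and -0.22 to 0.087. Gbp6 stood at 176, 165, 183 and 161 CPM in WT_fenofibrate, against 161, 154, 164 and 152 CPM in WT_control (0.12, adjusted p = 0.0572 by edgeR); with same-numbered libraries paired it was called higher (0.12, adjusted p = 0.0269), as it was without WT_fenofibrate replicate 4 (0.15, adjusted p = 0.0285). Between the genotypes under fenofibrate, 1 member was higher and 4 were lower in Irgm1KO (33.3% of all genes called, 18.1% higher and 15.2% lower; these 5 members and 28.9% of all genes did not overlap): beside Gbp4 and Gbp3, these were Gbp6 (-0.20), Gbp7 (-0.34) and Gbp8 (-0.38).

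Irgm1KO_fenofibrate cells were also set against WT_control, to see how far the drug brought the mutant towards untreated wild type. Gbp3 (-0.51), Gbp4 (-0.20), Gbp5 (-0.80), Gbp7 (-0.41) and Gbp9 (-0.60) were below WT_control and no member was above it, with 48.4% of all genes called (25.9% higher, 22.5% lower). These 5 members did not overlap between the groups, nor did 44.4% of all genes. Type I interferon-stimulated genes did not follow this pattern: 13 of 29 were above WT_control and 3 below. The call for Gbp4 (edgeR, adjusted p = 0.0292) ended without WT_control replicate 1 (0.0708), Irgm1KO_fenofibrate replicate 3 (0.0634) or replicate 4 (0.0605), and without the farthest library of each group (0.0554). The comparisons within an experiment share libraries and are not independent.

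Of the 3 other family genes in the tables, Gbp2b and Gbp11 had log2 fold changes larger than any member's. Gbp2b, a chromosome 3 neighbour close in sequence to Gbp2, averaged 668 ± 146 CPM in Irgm1-KO, against 1369 ± 229 CPM in WT (SD, n = 4; log2 fold change -1.03, adjusted p = 0.000171 by edgeR). In Irgm_IFNAR-KO it averaged 1250 ± 65.5 CPM and was 0.90 above Irgm1-KO. With fenofibrate it fell by 1.59 in Irgm1KO and by 2.47 in WT on the log2 scale. Its level in Irgm1KO_control was 352 ± 44.8 CPM, against 550 ± 86.7 CPM in WT_control, and this was not called (adjusted p = 0.114).

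Gbp11 averaged 25.4 ± 3.33 CPM in Irgm_IFNAR-KO, 74.02 ± 10.4 in Irgm1-KO and 64.8 ± 7.14 in WT cells (-1.54 against Irgm1-KO and -1.35 against WT, adjusted p = 1.2e-06 and 2.34e-05 by edgeR). It fell with fenofibrate to 29.8 ± 1.35 CPM in Irgm1KO_fenofibrate, against 59.7 ± 3.13 in Irgm1KO_control (adjusted p = 7.98e-06), and was not called in WT (-0.31, adjusted p = 0.0625), and the interaction was called (adjusted p = 0.00677). Gbp10 was higher in Irgm1KO_control than in WT_control (0.59, adjusted p = 0.004) and lower in Irgm_IFNAR-KO than in Irgm1-KO (-0.37, adjusted p = 0.0111). Its values are uncertain, since 82.5% of its 50-base stretches occur in another gene.

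The pathway genes around the family were counted in the same fits. Beside each count below stand the shares over all genes. In Irgm1-KO 19.8% were higher and 20.7% lower, and in Irgm1KO_control 27.3% and 26.1%. With fenofibrate 23.5% were higher and 22.2% lower in Irgm1KO, and 18.1% and 16.9% in WT. Of 8 tested IRGs, Irgm1 among them, 3 rose and 2 fell in Irgm1-KO, and 4 rose and 2 fell in Irgm1KO_control. Irgm1, the targeted gene, was among those that fell in both. Tgtp1 rose by 0.67 and 0.69 on the log2 scale, Igtp (also called Irgm3) by 0.32 and 0.44, and Irgm2 by 0.19 and 0.20. Iigp1, a vacuole-breaking effector IRG, fell by 0.65 and by 0.57.

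Genes of interferon signalling were higher for 8 and lower for 3 of 16 in Irgm1-KO, and for 7 and 3 in Irgm1KO_control. Usp18, a brake on the type I receptor, was 2.76 and 2.54 higher on the log2 scale, while Ifngr1, a chain of the interferon gamma receptor, fell by 0.75 and by 0.56. Fenofibrate lowered 14 of the 16 in Irgm1KO and raised 1, and lowered 13 in WT and raised none. Ifnb1, which encodes interferon beta, was counted at 2.11 ± 1.13 CPM in Irgm1-KO, against 0.12 ± 0.0637 in WT, and at 1.55 ± 0.51 CPM in Irgm1KO_control, against 0.033 ± 0.0257 in WT_control.

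Of 21 genes for Gbp targeting and membrane attachment, 7 rose and 1 fell in Irgm1-KO, and 8 rose and 4 fell in Irgm1KO_control. Sqstm1, an autophagy receptor, rose by 1.67 in Irgm1-KO. Trim21 rose by 0.73 and 0.70, and Rce1, a protease that trims prenylated proteins, by 0.72 in Irgm1KO_control. Of 12 genes for the inflammasomes and cell death that Gbps feed, 7 rose and 1 fell in Irgm1-KO, and 8 rose and 2 fell in Irgm1KO_control. In Irgm1KO_control Casp4, the mouse sensor of cytosolic lipopolysaccharide, rose by 0.70 and Casp1 by 0.81, while Il1b fell by 1.39 in Irgm1-KO. Fenofibrate lowered 12 of these 12 in Irgm1KO and 10 in WT.

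Interferon-gamma-type genes rose for 11 and fell for 5 of 22 in Irgm1-KO, with a median of 0.35. Nos2, inducible nitric oxide synthase, rose by 4.08 and Cxcl9 by 1.87. The 5 that fell, named after their values were seen, were Ciita (-0.69), H2-Eb1 (-0.67), H2-Aa (-0.64), Irf8 (-0.63) and Cd74 (-0.34). Fenofibrate lowered 18 of the 22 in Irgm1KO and 13 in WT, and raised 1 and 3. The constitutive relatives of the dynamin superfamily, which include the atlastins and mitofusins, rose for 0 and fell for 2 of 8 in Irgm1-KO.

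**Figure D5:**
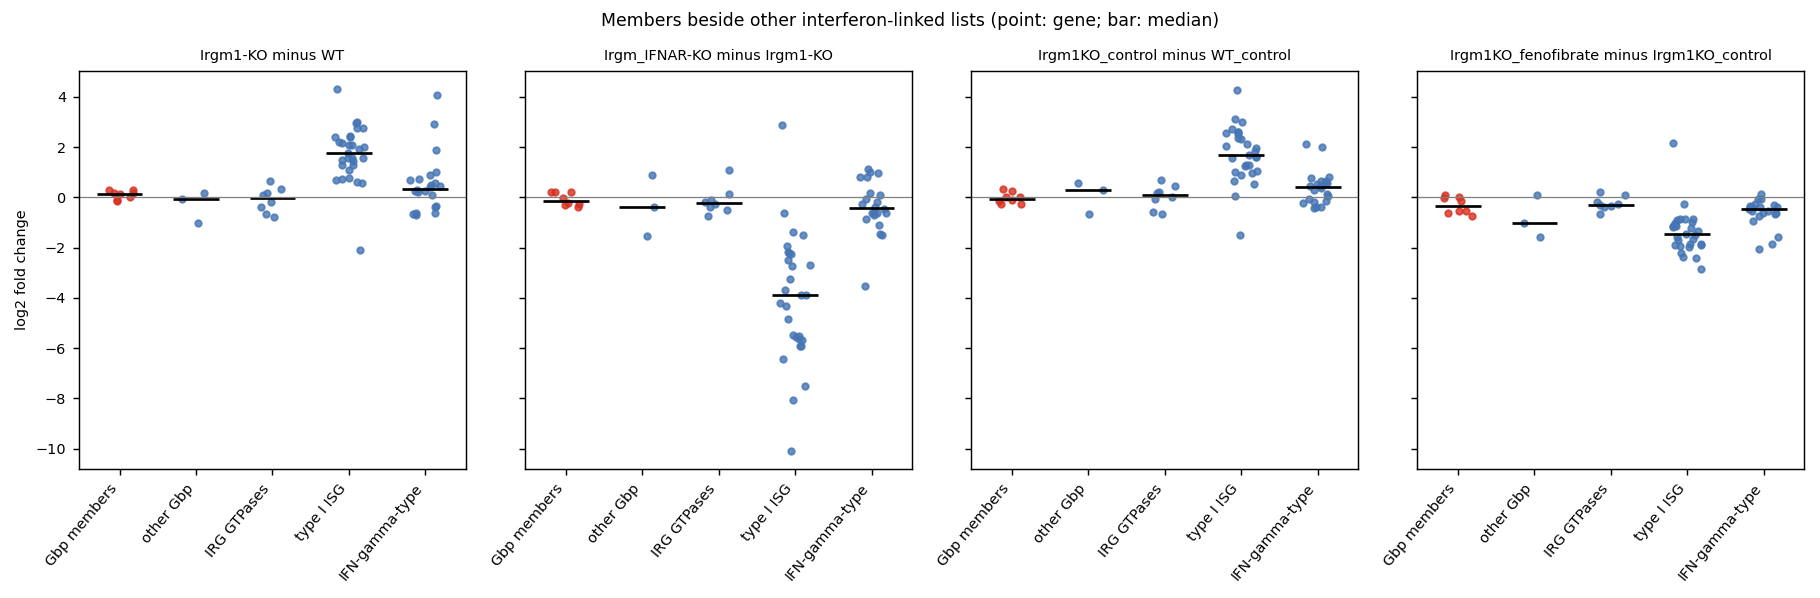
Log2 fold change (vertical axis) of each tested gene in 5 lists (points) with the list's median (bar), in 4 comparisons; the first group named in each title is the numerator. In the first 3 panels the members, at the left, lie close to 0, while type I interferon-stimulated genes have medians of 1.75, -3.88 and 1.70. In the last panel, for fenofibrate in Irgm1KO, Gbp3 (-0.75), Gbp9 (-0.63), Gbp5 (-0.55) and Gbp4 (-0.54) lie below 0 and the other members were not called.

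Members did not vary as 1 unit across libraries. Over the 28 pairs of members, Pearson's r of log2 CPM ran from -0.86 to 0.96 with a median of -0.04 across the 12 libraries of the first experiment, and from -0.75 to 0.86 with a median of 0.14 across the 16 of the second. The closest pairs were Gbp4 and Gbp6 (0.96) and Gbp3 and Gbp6 (0.90) in the first, and Gbp3 with Gbp9 and Gbp5 with Gbp9 (0.86 each) in the second. These values mix differences between groups with differences between libraries and are descriptions.

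By the mean of the r values in the 2 experiments, the genes most like Gbp3 were Flrt3, Ypel5 and the interferon-induced chemokine Cxcl10. Those most like Gbp4 were Pik3ap1, Ppp1r13b and Dennd1c, and those most like Gbp9 were the RNA sensor Tlr7, Elf1 and Dclre1c. Gbp5 was most like Kif3b, Samhd1 and Pnrc1, Gbp7 most like Erbin, Ccdc186 and Atrx, Gbp8 most like Narf and Tigd2, and Gbp6 most like Trp53cor1, Slamf7 and Rnf14. Gbp2 had the weakest likeness, with Thap4 (r of 0.89 and 0.53), Dbp (0.70 and 0.71) and Cd81 (0.79 and 0.59). For the 8 members as a group, by the mean of their standardised levels, they were Sestd1, Dusp16, Rufy3, Tbk1 and Nrp2. With Spearman's rho, 9 of the 24 genes that the rule picks for single members, and none of the 5 for the family, were picked again. None of those named for Gbp3, Gbp5 and Gbp9 was picked again, Cxcl10 and Tlr7 included.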

How the data were processed

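The authors deposited raw counts of reads per gene, whole numbers with no scaling, as 1 table for each experiment. Tools named in the submitters' processing notes are fastp, STAR and DESeq2, with build GRCm39. Not given in the sources used here are their versions, the counting step, the annotation and whether strand was used. Near-identical Gbp copies are therefore uncertain. The first table (15423 genes) had been filtered by the authors before deposit, and the second holds 56941 genes, 26301 of them 0 throughout.

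The count test was edgeR 4.0.16 in R 4.3.3: filterByExpr (minimum count 10, minimum total 15; 13998 and 15429 genes left), TMM scaling and 1 robust quasi-likelihood fit per experiment with all its groups, each comparison a contrast, adjusted by Benjamini-Hochberg over all tested genes at 0.05. The fit was tested on simulated data. The biological coefficient of variation was 0.172 and 0.12. SE is the log2 fold change over the square root of F. CPM uses the scaled library, and lengths come from a GENCODE annotation of GRCm38, whereas promoter sequences are RefSeq's. Depth was 48.7 to 70.5 M and 82.4 to 120.8 M counts per library, and the chi-square per degree of freedom between replicate libraries was at least 21.3, so the spread between libraries, rather than depth, set the precision. Alternatives were DESeq2 1.42.0, RLE scaling, no filter, leaving out the gene with the largest share of counts, only the groups compared, an Xist covariate, a replicate block and each library left out; leaving out the farthest library of each group was chosen after seeing the data.

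Whether replicate numbers pair libraries was checked from their deviations. Same-numbered control and fenofibrate libraries of the second experiment deviated together (lowest and highest r 0.38 and 0.49 for WT, 0.26 and 0.37 for Irgm1KO; other pairs of these groups at most 0.14), so numbers pair libraries within a genotype; in the first they did not (r from -0.48 to 0.52). No library of a group matched another within counting noise.

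The members and gene lists were chosen with earlier results of these data known. Named genes are the members, Irgm1, Ifnar1, the other Gbps, the IRGs, the interferon genes and genes of the cell type marker lists. Also named are up to 3 genes per list with the smallest p in each comparison of genotypes, and the genes most like each member. Some genes this rule covers are left out of the text, and others are said to have been chosen after their values were seen. Protein sequences were not analysed, and promoters of the chromosome 5 members were not used here.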

Additional observations from a re-analysis of the deposited data

Results flagged for a closer look

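The fenofibrate effect differed between genotypes for 2 members by the interaction term. For Gbp3 the interaction was -0.47 on the log2 scale, with mean levels of 531 ± 22 CPM in Irgm1KO_fenofibrate and 894 ± 36.7 in Irgm1KO_control, and of 621 ± 47.1 in WT_fenofibrate and 756 ± 10.1 in WT_control (SD, n = 4). For Gbp8 it was -0.38, with means of 169 ± 6.97 CPM in Irgm1KO_fenofibrate and 171 ± 2.29 in Irgm1KO_control, and of 220 ± 12.4 in WT_fenofibrate and 172 ± 2.77 in WT_control. Gbp4 in Irgm1KO_fenofibrate replicate 1 stood at 645.4 CPM, far from the other 3 libraries of that group, which lay within 594 to 600 CPM. It was the 1 far library among 56 groups of 4 examined, a smaller share than the about 1 in 20 that chance marks.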

How the results depend on the processing

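The 8 members' values were recomputed under the alternatives, giving 1208 values: 1171 kept their direction and side of the threshold or had no call in either fit, 23 gained a call, 14 lost one, and no called value turned round (39 uncalled values changed sign). With Xist as a covariate, members higher in Irgm1-KO than in WT were 4 and lower 1. Gbp2 (edgeR, adjusted p = 0.021) and Gbp6 (0.0209) joined those higher, and Gbp7 was lower (-0.24, adjusted p = 0.000592). In Irgm_IFNAR-KO with that covariate 3 were higher than in Irgm1-KO, Gbp7 and Gbp8 being added. Against WT 2 were higher and 2 lower, with Gbp8 and Gbp4 added. In Irgm1KO_control it gave 4 lower than in WT_control (Gbp2 and Gbp6 added) and, in WT_fenofibrate, 2 higher than in WT_control (Gbp6 added). It also called Gbp5 lower in Irgm1KO_fenofibrate than in WT_fenofibrate, and Gbp6 lower there than in WT_control. DESeq2 called 2 higher in Irgm_IFNAR-KO against Irgm1-KO and 2 against WT, Gbp8 joining Gbp2 (adjusted p = 0.0214 and 0.02). The replicate block gave 2 higher in WT_fenofibrate and changed no other member's call. The cause of these shifts was not tested. Leaving out libraries gave 2 to 4 members higher in Irgm1-KO than in WT, 0 to 2 higher in Irgm_IFNAR-KO than in Irgm1-KO and 1 to 2 higher than in WT, 1 to 2 lower in Irgm1KO_control than in WT_control, and 1 to 2 higher in WT_fenofibrate than in WT_control. Over all genes, the Xist covariate gave 4240 higher in Irgm1-KO than in WT (2767 without it), 4631 higher in Irgm_IFNAR-KO than in Irgm1-KO (3014), and 2087 higher and 2124 lower than in WT (552 and 1150). Leaving out single libraries, or the farthest library of each group, took the 552 to between 337 and 803. It was 367 without WT replicate 3 and 361, 360 and 337 without Irgm_IFNAR-KO replicates 1, 2 and 3. Fitting only the compared groups gave 1782 genes higher in Irgm1KO_fenofibrate than in WT_fenofibrate, against 2792.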
